A study of Mus musculus with 13 samples.

Results

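The enzymes described here reduce or oxidise steroid hormones and the small carbonyls made with them. They are 9 mouse genes, Akr1d1, Srd5a1, Srd5a2, Srd5a3, Akr1b7, Akr1c18, Hsd11b1, Hsd11b2 and Rdh1, taken by gene symbol from the tables of adrenal gland RNA. Of the 9, 8 were among the 14078 genes with values in every library, and Hsd11b2 was not analysed here. Akr1d1 and Srd5a2 were picked for their large falls, that is, they were chosen by their FPKM in these same libraries, so their levels are given as a description without a test, and the other 6 were tested. The glands came from C57BL/6 mice and gave 5 libraries before TAM, 4 at 24 h after it and 4 at 8 weeks after it. The labels name the time axis as time after the knockout of Star, whose protein delivers cholesterol to the steroid-making machinery of the mitochondrion. They give neither the driver of the deletion nor the age or sex of the mice, and no group that received TAM without the deletion was analysed here, so TAM, time and the deletion cannot be told apart. Whether the numbered libraries of a group are separate animals is not stated, so the p-values speak for the spread among these libraries alone.

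Adrenal steroids are built from cholesterol and are then changed at single positions of the ring system, which alters which receptor they bind or ends their activity. Reductases that use NADPH saturate the A ring from either face: 5-alpha-reductases (the Srd5a family) give flat products such as dihydrotestosterone, and 5-beta-reductase (Akr1d1) gives bent products and is best known from bile acid synthesis in the liver. Hydroxysteroid dehydrogenases switch a keto group and a hydroxyl group into each other, as the 11-beta pair does for corticosterone and the 20-alpha enzyme (Akr1c18) for progesterone. In the mouse adrenal Akr1b7 is known for its response to the pituitary hormone ACTH, and Akr1c18 marks the X-zone, an inner layer of the cortex that is lost in male mice at puberty.

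The bases before the start of 6 of the genes are shown here because the 8-week and before libraries of 5 of them did not overlap, and because Akr1b7 had the highest median level at each time. Promoter windows from RefSeq on GRCm38.p6 (the build of mm10) were matched for 8 of the 9 genes. Printed are the 250 bases before each RefSeq start, on the gene's own strand, except for Srd5a2. The deposited Srd5a2 model starts 56 bases further upstream than the RefSeq entry, and these 56 bases are left out, which leaves 194. They lie at chr6:37529923-37530172 (plus strand) for Akr1d1, chr13:69611464-69611713 (minus) for Srd5a1, chr17:74047917-74048110 (minus) for Srd5a2, chr10:127759513-127759762 (plus) for Rdh1, chr6:34412112-34412361 (plus) for Akr1b7 and chr1:193242361-193242610 (minus) for Hsd11b1. Capitals mark matches on either strand to AGGTCA, the core of sites for nuclear receptors such as the cortical factor Nr5a1, to TGACG, the core of the cyclic AMP element, or to TGTTCT, the core of the steroid receptor element.
Akr1d1: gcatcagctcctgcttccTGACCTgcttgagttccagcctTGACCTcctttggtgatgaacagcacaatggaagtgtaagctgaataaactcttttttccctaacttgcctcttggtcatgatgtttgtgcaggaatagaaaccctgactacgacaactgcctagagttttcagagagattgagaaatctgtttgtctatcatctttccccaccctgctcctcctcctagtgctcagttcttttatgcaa
Srd5a1: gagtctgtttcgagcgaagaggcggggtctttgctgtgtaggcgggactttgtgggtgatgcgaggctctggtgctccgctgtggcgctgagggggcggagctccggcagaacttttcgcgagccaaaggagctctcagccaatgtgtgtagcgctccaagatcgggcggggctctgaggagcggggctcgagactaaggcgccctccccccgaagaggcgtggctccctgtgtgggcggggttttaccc
Srd5a2: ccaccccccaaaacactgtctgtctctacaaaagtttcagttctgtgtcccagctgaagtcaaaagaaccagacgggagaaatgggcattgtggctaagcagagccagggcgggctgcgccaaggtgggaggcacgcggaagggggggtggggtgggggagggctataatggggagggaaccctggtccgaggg
Rdh1: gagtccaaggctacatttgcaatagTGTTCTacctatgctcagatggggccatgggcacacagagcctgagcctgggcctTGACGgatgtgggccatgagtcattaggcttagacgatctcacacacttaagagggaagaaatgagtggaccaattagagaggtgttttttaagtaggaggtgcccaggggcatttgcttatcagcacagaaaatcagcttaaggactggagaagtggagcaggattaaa
Akr1b7: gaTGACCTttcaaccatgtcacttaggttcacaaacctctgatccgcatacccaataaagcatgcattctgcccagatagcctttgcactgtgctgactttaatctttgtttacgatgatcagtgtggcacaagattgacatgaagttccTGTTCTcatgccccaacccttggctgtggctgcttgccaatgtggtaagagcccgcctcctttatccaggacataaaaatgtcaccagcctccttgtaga
Hsd11b1: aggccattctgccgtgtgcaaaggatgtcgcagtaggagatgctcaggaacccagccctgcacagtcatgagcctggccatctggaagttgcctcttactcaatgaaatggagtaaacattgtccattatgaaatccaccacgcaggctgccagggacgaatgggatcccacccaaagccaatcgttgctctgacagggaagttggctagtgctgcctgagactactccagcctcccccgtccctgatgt
The Akr1d1 window held AGGTCA at 2 places, 232 and 210 bases before the start and both on the opposite strand, and the Akr1b7 window held it at 1 place, 248 bases before the start. TGTTCT lay 100 bases before the start of Akr1b7 and 225 bases before that of Rdh1, and TGACG 170 bases before the start of Rdh1 and 41 bases before that of Srd5a3. In Akr1c18 an AGGTCA lay 28 bases after the start. No letters of these motifs were found in the 300-base windows (250 before and 50 after the RefSeq start) of Srd5a1, Srd5a2 and Hsd11b1, and no matches overlapped. Among 32851 promoter windows of that length, 16.3% held AGGTCA, 20.8% held TGACG and 19% held TGTTCT, so single matches of this kind are common, and they are given as letters in a window and not as sites.

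Some libraries stood apart, and most results of the 9 genes that rest on them are given with and without them. Of the list genes only some are given in both ways. Star itself averaged 3797 ± 399 FPKM before TAM (n = 5), 334.7 ± 274 FPKM at 24 h (n = 4) and 146.1 ± 50.8 FPKM at 8 weeks (n = 4; SD; FPKM are reads scaled to transcript length and to library size). Among the 3 deposited models summed here is a model named as with the deletion. That model already had 432.0, 48.3, 297.7, 462.0 and 393.3 FPKM before TAM. It had 462.8, 566.9, 13.1 and 180.5 FPKM at 24 h and 33.8, 59.6, 60.9 and 102.9 FPKM at 8 weeks. The model named as without the deletion had 3.62 to 49.3 FPKM at 24 h and 23.6 to 139.9 FPKM at 8 weeks. The third had 0.728 to 13.1 FPKM at 24 h and at most 2.40 FPKM at 8 weeks. Before replicate 2 had its Star reads in another of the 3 deposited Star models than the other before libraries had, and no call of the 9 genes changed without it. At 24 h, replicate 3 had 1.07 FPKM of the fasciculata enzyme Cyp11b1, against 177 to 4066 FPKM in the other 12 libraries, and 83.0 FPKM of Gata4, against 0.567 to 6.81 FPKM. Xist, which is transcribed from the inactive X chromosome, stood at 0.0374 and 0.0101 FPKM in 24 h replicates 3 and 4 and at 17.7 to 41.6 FPKM in the other 11. Albumin (Alb) stood at 13283 FPKM in 8-week replicate 3 and 977.6 FPKM in before replicate 5, and at 0 to 11.7 FPKM in the others. Summed FPKM of 5 cortical markers, all detected in each library, ranged from 10595 to 12344 before TAM, 4328 to 8869 at 24 h and 870.0 to 2274 at 8 weeks. Over the same times 7 macrophage markers summed to 115 to 307, 1127 to 2081 and 2615 to 4304 FPKM, and 6 fat cell markers to 185 to 1827, 50.6 to 4273 and 7560 to 15326 FPKM. No marker of these 3 lists was at 0 in any library, and the part of these shifts in the results below was not tested. The cortical sum of 4328 was in 24 h replicate 3, with Hsd3b1 at 3024 FPKM and Cyp11a1 at 983.0 FPKM. In that library 5 fasciculata markers summed to 109.8 FPKM, against 4656 to 10923 FPKM in the other 24 h libraries. Its 6 medulla markers summed to 18.8 FPKM, against 116 to 4095 FPKM in those. Its glomerulosa marker Agtr1b was at 0, and its tissue was not tested.

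At 8 weeks the 5-alpha-reductase gene Srd5a1 and the retinol dehydrogenase gene Rdh1 were lower than before TAM, and no tested gene of the 9 was higher. Levels of Akr1d1 and Srd5a2, which were picked for this, lay far below the before libraries at 8 weeks. Srd5a3 stayed between 14.8 and 21.1 FPKM in every library. Hsd11b1 was higher at 8 weeks in all 4 libraries, a difference that was called once 24 h replicate 3 was left out. It stayed uncalled when only 8-week replicate 3 was left out (log2 fold change 0.81, edgeR adjusted p = 0.49). Akr1b7 stood above its before median in 3 of 4 libraries at 24 h, and Akr1c18 varied more within times than between them. In edgeR's quasi-likelihood test 2 of the 6 tested genes passed an adjusted p of 0.05 at 8 weeks against before, both lower, while 36.9% of all 14078 genes passed it (20.5% higher and 16.4% lower), so this count lies near the background. At 24 h against before 1 of 6 passed, lower (Rdh1), with a background of 19.2% (12.6% higher and 6.63% lower). Rdh1, called at both times against before, met the read limit for listing only through its before libraries. A large change of it could thus only be a fall. At 8 weeks against 24 h 0 of 6 passed, with a background of 20.8% (10.1% higher and 10.6% lower), 2 of 6 had an unadjusted p under 0.05, and DESeq2 called 2. The 3 comparisons share libraries and are not independent.

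**Figure D1:**
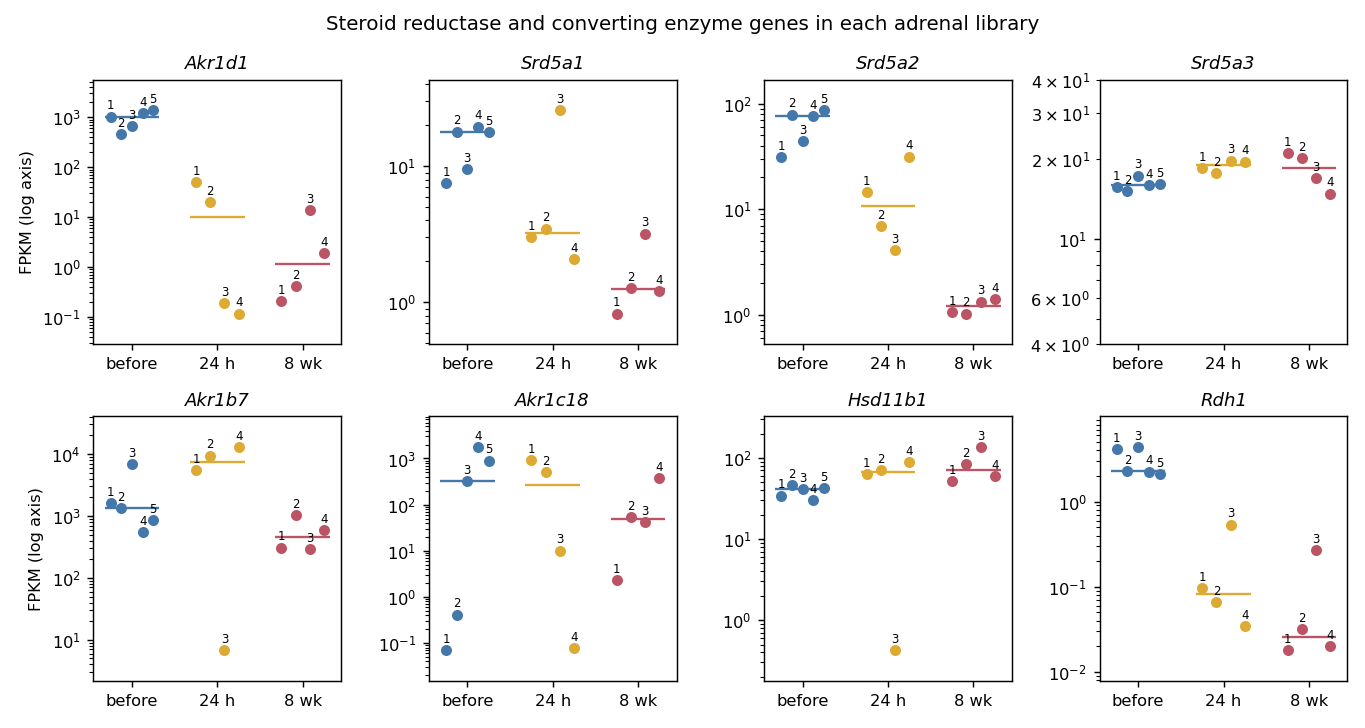
FPKM of 8 genes in each library (log axes), with before TAM, 24 h and 8 weeks from left to right. Points are libraries, numbered by replicate, and lines are group medians. Akr1d1, Srd5a2 and Rdh1 lie lowest at 8 weeks, with medians of 1.16, 1.20 and 0.0261 FPKM, and 24 h replicate 3 stands alone in Srd5a1 (25.9 FPKM), Akr1b7 (6.75 FPKM) and Hsd11b1 (0.423 FPKM).

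Ordered by median level, the glands before TAM were led by Akr1b7 (1345 FPKM) and Akr1d1 (1026 FPKM), followed by Akr1c18 (318.9), Srd5a2 (76.4), Hsd11b1 (41.7), Srd5a1 (17.8), Srd5a3 (15.96) and Rdh1 (2.29). Only the steps between Hsd11b1 and Srd5a1 and between Srd5a3 and Rdh1 separated the ranges of neighbours. Akr1b7 kept the highest median at 24 h (7441 FPKM) and at 8 weeks (452.0 FPKM), with ranges that met those of Akr1c18 at 24 h. By 8 weeks Hsd11b1 was second, at a median of 71.1 FPKM. Srd5a1, Srd5a2 and Akr1d1 then stood together at 1.24, 1.20 and 1.16 FPKM with overlapping ranges, although before TAM their medians had run from 17.8 to 1026 FPKM.

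Among the A-ring reductases, Akr1d1 (chromosome 6, from 37530173 to 37568815, plus strand), the 5-beta-reductase gene, was an abundant transcript before TAM, with 1026, 462.1, 665.4, 1232 and 1381 FPKM in the 5 libraries. At 24 h it stood at 50.2, 20.3, 0.189 and 0.117 FPKM. At 8 weeks the 4 libraries had 0.207, 0.416, 14.1 and 1.90 FPKM. All 8 later libraries lay below the lowest library from before TAM, and 24 h and 8 weeks overlapped each other. The mean of 4.15 ± 6.65 FPKM at 8 weeks (n = 4) was 229.9-fold below the 953 ± 384 FPKM before TAM (n = 5), with fitted log2 fold changes of -7.60 at 8 weeks and -5.72 at 24 h. In bulk RNA, fewer cells of a type and less RNA per cell cannot be told apart. The spread within the later groups was large: the 24 h libraries differed 428-fold, the 2 lowest being those with Xist near 0, and the highest 8-week library was the one with the highest Alb. Without 8-week replicate 3 the mean at 8 weeks was 0.842 ± 0.925 FPKM (n = 3), and without 24 h replicates 3 and 4 the mean at 24 h was 35.3 ± 21.1 FPKM (n = 2). Behind these values were 30684 to 77027 reads per library before TAM, 7 to 3603 at 24 h and 16 to 832 at 8 weeks.

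Profiles most like that of Akr1d1 were sought among 9269 genes, as the smallest mean absolute difference of log2 CPM (prior count 2) over the 13 libraries after centring on the before libraries. The nearest were Cyp2f2, a P450 gene, at a mean difference of 2.46, Vsnl1, a calcium sensor known from the glomerulosa, at 2.58, and Nr0b1, a repressor of cortical transcription, at 2.60. Even these nearest profiles differed from Akr1d1 by over 2 log2 units a library. Cyp2f2 stood at 0.701 and 0.224 FPKM in 24 h replicates 3 and 4 and at 85.5 FPKM in 8-week replicate 3, which were its lowest 24 h and its highest 8-week libraries, as for Akr1d1. Its choice over these same libraries favoured such a match.

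Srd5a2 (chromosome 17, from 74017706 to 74047916, minus strand), the 5-alpha-reductase best known from male urogenital tissue, had 31.1, 78.9, 44.1, 76.4 and 86.7 FPKM before TAM. The 24 h libraries had 14.4, 6.96, 4.11 and 31.5 FPKM. The 8-week libraries had 1.06, 1.02, 1.33 and 1.40 FPKM. The 8-week libraries lay below all others and within 1.36-fold of each other. Of the 24 h libraries only replicate 4, which had Xist near 0, reached into the range of the before libraries. Without 24 h replicates 3 and 4 the mean at 24 h was 10.7 ± 5.29 FPKM (n = 2). Means were 63.5 ± 24.3 FPKM before TAM (n = 5), 14.3 ± 12.3 FPKM at 24 h and 1.20 ± 0.189 FPKM at 8 weeks (n = 4 each), and the fitted log2 fold change against before was -2.08 at 24 h and -5.58 at 8 weeks. Unlike Akr1d1, Srd5a2 showed no high value in the 8-week library with the most Alb, and its highest 24 h value was in replicate 4, where Akr1d1 was lowest. The 8-week values rested on 21 to 26 reads a library. Its nearest profiles were AW549542 (mean difference 0.74), Trank1 (0.74) and Tacr2, a tachykinin receptor gene (0.78).

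For Srd5a1 (chromosome 13, from 69573449 to 69611463, minus strand), the 5-alpha-reductase with wide tissue expression, the before libraries had 7.50, 18.0, 9.55, 19.6 and 17.8 FPKM. At 24 h they had 3.04, 3.48, 25.9 and 2.07 FPKM. At 8 weeks they had 0.826, 1.28, 3.20 and 1.21 FPKM. The 8-week libraries all lay below the before libraries, while at 24 h 3 libraries lay below them and replicate 3 above them. Srd5a1 fell at 8 weeks against before, with a log2 fold change of -2.97 (SE 0.75, edgeR adjusted p = 0.0078) and means of 1.63 ± 1.07 FPKM (n = 4) and 14.5 ± 5.54 FPKM (n = 5). At 24 h its log2 fold change over before came to -0.80 (SE 0.68, adjusted p = 0.45), and without 24 h replicate 3 it was -2.26 (SE 0.49, adjusted p = 0.0051). Between 8 weeks and 24 h it was -2.17 (SE 0.74, adjusted p = 0.054), and without 24 h replicate 3 it was -0.75 (SE 0.47, adjusted p = 0.24). With 24 h replicate 3 kept, leaving out 24 h replicate 1, 24 h replicate 4 or 8-week replicate 3 alone changed the edgeR adjusted p of 0.054. It was then 0.038, 0.037 and 0.036. In the authors' deposited table the log2 ratio of 8 weeks to before was -3.25 with q = 0.0029.

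Srd5a3 (chromosome 5, from 76140273 to 76155503, plus strand) encodes the family member that reduces polyprenol on the way to dolichol, the lipid carrier of protein glycosylation. It had 15.7, 15.2, 17.4, 15.96 and 16.1 FPKM before TAM, 18.5, 17.7, 19.8 and 19.6 FPKM at 24 h, and 21.1, 20.2, 17.0 and 14.8 FPKM at 8 weeks. All 24 h libraries lay above all before libraries, by a narrow margin, and the 8-week libraries overlapped both. The log2 fold change was 0.26 at 24 h against before (SE 0.12, 95% interval -0.01 to 0.52, edgeR adjusted p = 0.17) and 0.32 at 8 weeks against before (SE 0.12, 95% interval 0.05 to 0.58, adjusted p = 0.057). Without 8-week replicate 4 the difference between 8 weeks and before was 0.41 (adjusted p = 0.018). By contrast, the Srd5a1 interval for 8 weeks against before ran from -4.59 to -1.36. For 8 weeks against 24 h the value was 0.06 (SE 0.13, adjusted p = 0.76).

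**Figure D2:**
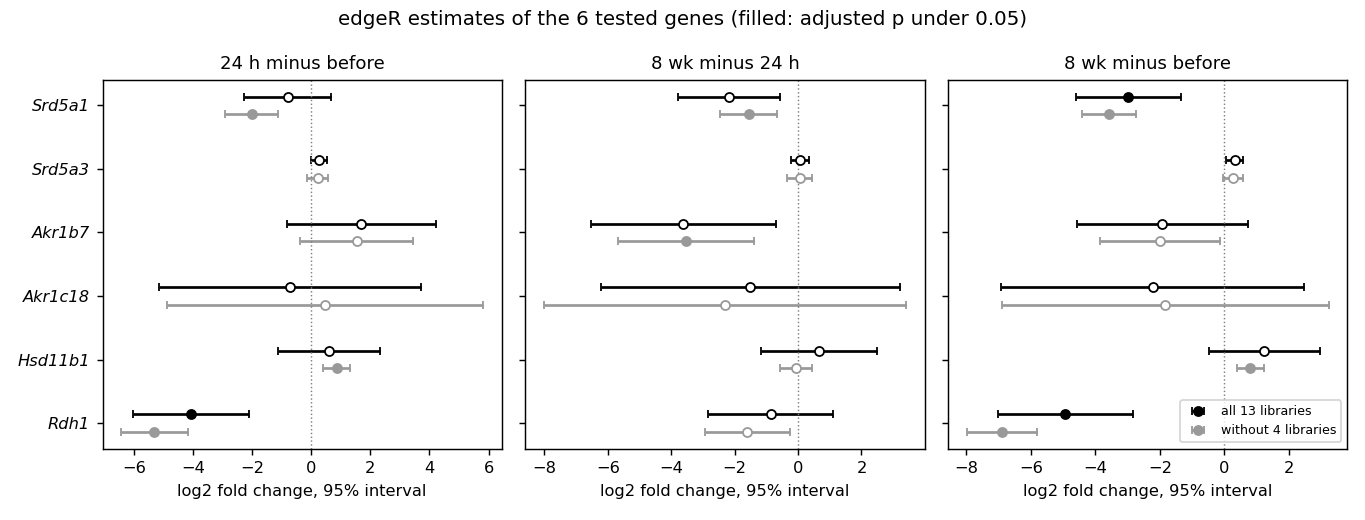
log2 fold changes of the 6 tested genes by edgeR with 95% intervals, for 24 h minus before, 8 weeks minus 24 h and 8 weeks minus before. Black points use all 13 libraries and grey points leave out before replicate 5, 24 h replicates 3 and 4 and 8-week replicate 3, and filled points passed an adjusted p of 0.05. Rdh1 and Srd5a1 lie below 0 at 8 weeks against before in both fits, Akr1c18 has the widest intervals, and Hsd11b1 is filled at 8 weeks against before only in the smaller fit.

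Of the converting enzymes, Rdh1 (chromosome 10, from 127759763 to 127768299, plus strand) belongs to the short-chain retinol dehydrogenases, a family whose members also oxidise 3-alpha-hydroxysteroids. Its levels were low throughout. Before TAM the libraries had 4.16, 2.29, 4.38, 2.24 and 2.09 FPKM. At 24 h they had 0.0967, 0.0662, 0.536 and 0.0349 FPKM. At 8 weeks they had 0.0180, 0.0321, 0.272 and 0.0200 FPKM. Neither later group overlapped the before libraries, and within each later group replicate 3 stood above the others. Rdh1 fell at both times, by a log2 fold change of -4.07 at 24 h (SE 0.91, edgeR adjusted p = 0.0079) and of -4.93 at 8 weeks (SE 0.97, adjusted p = 0.0018) against before. Between 8 weeks and 24 h Rdh1 differed by -0.86 (SE 0.91, adjusted p = 0.52). Without 24 h replicate 3 the 24 h value was -5.45 (SE 0.89, adjusted p = 0.00089), and without 8-week replicate 3 the 8-week value was -6.76 (SE 0.96, adjusted p = 0.00035). Reads were few, 168.4 to 486.3 a library before TAM, 3 to 65.3 at 24 h and 1.5 to 23.2 at 8 weeks, and the estimated counts were not whole, so related genes may share reads with Rdh1. At each later time only replicate 3 reached 16 reads, so Rdh1 was listed through its before libraries alone. A gene listed in that way can show a large change only as a fall, which limits these tests. The authors' deposited table gave a log2 ratio of -6.09 with q = 0.0022.

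In non-overlap terms, Srd5a1, Rdh1, Akr1d1 and Srd5a2 were lower in every 8-week library than in every before library, and Hsd11b1 was higher. Over all genes the background of such separation was 26.5% lower and 18.1% higher. At 24 h against before Akr1d1 and Rdh1 separated downward and Srd5a3 upward, with backgrounds of 8.01% and 9.75%. At 8 weeks against 24 h Srd5a2 alone separated, downward, with a background of 13.3% lower and 9.92% higher. These counts of Akr1d1 and Srd5a2 follow from how they were picked, and Rdh1 was listed only through its before libraries.

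Hsd11b1 (chromosome 1, from 193221641 to 193264045, minus strand) encodes the reductase that regenerates active corticosterone from its 11-keto form. Summed over its 2 transcript models it had 34.4, 46.0, 41.7, 30.2 and 42.4 FPKM before TAM. It had 63.3, 70.9, 0.423 and 89.5 FPKM at 24 h. It had 52.2, 83.0, 136.5 and 59.2 FPKM at 8 weeks. All 8-week libraries lay above the before libraries, and so did 3 of the 24 h libraries, replicate 3 being the exception with the lowest value of all. In the 8-week libraries its log2 fold change over before was 1.24 (SE 0.80, edgeR adjusted p = 0.24) in the fit of all libraries. Without 24 h replicate 3 it was 1.21 (SE 0.28, adjusted p = 0.0042). Fitting the 2 groups alone gave 1.21 (adjusted p = 0.0067), and leaving out the 4 libraries that stood apart gave 0.81 (SE 0.19, adjusted p = 0.0071). Leaving out 8-week replicate 3 alone gave 0.81 (SE 0.85, edgeR adjusted p = 0.49). At 24 h against before it was 0.59 (SE 0.80, adjusted p = 0.65), and 1.03 (SE 0.30, adjusted p = 0.025) without replicate 3. For 8 weeks against 24 h the difference was 0.65 (95% interval -1.18 to 2.48, adjusted p = 0.60), and without 24 h replicate 3 it was 0.19 (95% interval -0.52 to 0.89, adjusted p = 0.68).

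The 2 models of Hsd11b1 share their 3-prime end at 193221641 and differ in their start. The long model starts at 193264045, and the short one at 193242360, at the end of the printed window. The short model had 0.913, 1.40, 6.98, 4.67 and 14.05 FPKM before TAM, 7.06, 4.33, 0.262 and 10.1 FPKM at 24 h, and 12.4, 12.8, 97.6 and 9.46 FPKM at 8 weeks. Its share of Hsd11b1 FPKM was 2.66 to 33.2% before TAM, 6.10 to 61.9% at 24 h and 15.5 to 71.5% at 8 weeks. The 61.9% was in 24 h replicate 3, where both models together had 0.423 FPKM from 18 reads. In the other 24 h libraries the share was 6.10 to 11.3%. Without 8-week replicate 3 it was 15.5 to 23.8% at 8 weeks. The highest share, 71.5%, and the highest level, 97.6 FPKM, were in 8-week replicate 3, and the highest before level, 14.05 FPKM, in before replicate 5, which are the libraries with 13283 and 977.6 FPKM of Alb. The long model had 39.8, 70.2, 38.9 and 49.8 FPKM at 8 weeks, against 33.4, 44.6, 34.7, 25.5 and 28.3 FPKM before TAM, so its groups overlapped. Reads common to both models were divided between them by estimate. The authors' deposited table gave log2 ratios of 2.45 (q = 0.11) for the short model and 0.56 (q = 0.099) for the long one.

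**Figure D3:**
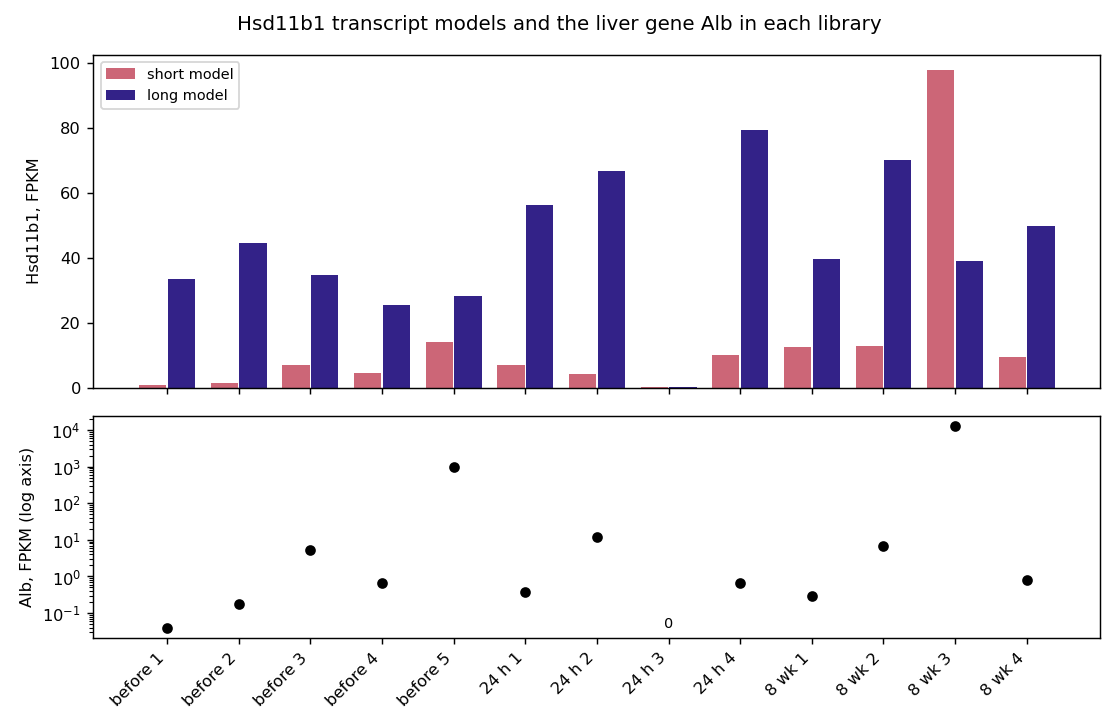
Upper panel, FPKM of the short and long Hsd11b1 models in each library, from before TAM through 24 h to 8 weeks, and lower panel, FPKM of Alb (log axis, with the library at 0 marked). The short model exceeds the long one by far only in 8-week replicate 3 (97.6 and 38.9 FPKM), which also holds the most Alb, and both models are near 0 in 24 h replicate 3.

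Genes with profiles nearest to Hsd11b1 were Podn, a gene of an extracellular matrix protein (mean difference 0.56), Slc29a4, a monoamine transporter gene (0.56), and Sp110, an interferon-induced gene (0.58). Each of the 3 was lowest in 24 h replicate 3, at 0.142, 0.286 and 0 FPKM, which their choice over these same libraries favoured.

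Akr1b7 (chromosome 6, from 34412362 to 34423137, plus strand) encodes an aldose reductase-like enzyme that clears isocaproaldehyde, the by-product of cholesterol side-chain cleavage. Before TAM it had 1593, 1345, 6795, 553 and 859.9 FPKM. At 24 h it had 5443, 9438, 6.75 and 12988 FPKM. At 8 weeks it had 308, 1035, 293 and 596 FPKM. At 24 h 3 libraries exceeded 4 of the 5 before libraries and replicate 3 lay below all others, while the 8-week libraries overlapped the lower end of the before libraries. Its log2 fold change was 1.69 at 24 h against before (SE 1.16, edgeR adjusted p = 0.35), -1.92 at 8 weeks against before (SE 1.22, adjusted p = 0.24) and -3.62 at 8 weeks against 24 h (SE 1.35, adjusted p = 0.072). Without 24 h replicate 3 the 3 values were 2.12 (SE 0.73, adjusted p = 0.049), -1.97 (SE 0.73, adjusted p = 0.042) and -4.09 (SE 0.84, adjusted p = 0.0054). With 24 h replicates 3 and 4 both left out they were 1.74 (adjusted p = 0.16), -1.97 (adjusted p = 0.042) and -3.72 (adjusted p = 0.016). Without the 4 libraries that stood apart they were 1.53 (adjusted p = 0.25), -1.999 (adjusted p = 0.073) and -3.53 (adjusted p = 0.034). Before replicate 3 held the highest level of its group, 6795 FPKM, and without it the before mean was 1088 ± 469 FPKM (n = 4) in place of 2229 ± 2585 FPKM (n = 5). The fitted values were then -0.85 at 8 weeks against before (adjusted p = 0.60) and 2.77 at 24 h against before (adjusted p = 0.14), and with voom weights on all libraries they were -0.62 (adjusted p = 0.44) and 2.74 (adjusted p = 0.018). Related aldo-keto reductases share sequence with Akr1b7, so its counts carry that uncertainty.

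The profiles nearest to Akr1b7 were Srxn1, which repairs oxidised peroxiredoxins (mean difference 0.87), Scarb1, the receptor for high-density lipoprotein (0.90), and Cyp11b2, the aldosterone synthase (0.94). Srxn1 and Scarb1 were highest of the before libraries in replicate 3, at 448 and 2250.4 FPKM, as Akr1b7 was, whereas Cyp11b2 was not, at 98.0 FPKM. All 3 were lowest of the 24 h libraries in replicate 3, at 21.2, 96.6 and 0.0881 FPKM. These likenesses were favoured by the choice of the 3 genes over the same libraries.

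Akr1c18 (chromosome 13, from 4132627 to 4150631, minus strand) encodes the 20-alpha-hydroxysteroid dehydrogenase that inactivates progesterone. Its levels before TAM were 0.0695, 0.416, 319, 1779 and 899.7 FPKM. The 24 h libraries had 907, 514, 10.1 and 0.0771 FPKM. The 8-week libraries had 2.32, 54.7, 42.2 and 374 FPKM. Libraries of every group overlapped, and the before libraries alone differed 25604.5-fold. No difference passed the test: the log2 fold change was -0.71 at 24 h against before (95% interval -5.15 to 3.72, edgeR adjusted p = 0.85), -2.23 at 8 weeks against before (95% interval -6.92 to 2.46, adjusted p = 0.44) and -1.51 at 8 weeks against 24 h (95% interval -6.23 to 3.20, adjusted p = 0.64). These sizes rested on single libraries. At 8 weeks against before the value was -4.03 (adjusted p = 0.27) without 8-week replicate 4 and -1.32 (adjusted p = 0.68) without before replicate 4. At 8 weeks against 24 h it was -3.32 (adjusted p = 0.39) without 8-week replicate 4 and -0.49 (adjusted p = 0.90) without 24 h replicate 1. The direction at 24 h against before also depended on the libraries used, since the value was 0.26 (adjusted p = 0.95) without before replicate 4, 0.29 (adjusted p = 0.94) without 24 h replicates 3 and 4 and -1.74 (adjusted p = 0.65) without 24 h replicate 1. In the authors' deposited table the log2 ratio of 8 weeks to before was 0.47 (q = 0.93), of the opposite sign to the fit.

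Pik3c2g, another gene of the X-zone, was low in the same libraries as Akr1c18. In the 5 libraries with Akr1c18 under 20 FPKM (before replicates 1 and 2, 24 h replicates 3 and 4 and 8-week replicate 1), Akr1c18 ranged from 0.0695 to 10.1 FPKM and Pik3c2g from 0.0127 to 0.180 FPKM. In the other 8, Akr1c18 ranged from 42.2 to 1779 FPKM and Pik3c2g from 0.329 to 18.1 FPKM. Of those 5 low libraries, 24 h replicates 3 and 4 were the ones with Xist near 0, and the other 3 had 32.05 to 41.6 FPKM of Xist. Thrb, the third X-zone marker used, showed no such split, with 12.0 and 7.39 FPKM in before replicates 1 and 2 and 3.76 FPKM in 8-week replicate 1. The profiles nearest to Akr1c18, Fetub, 4930486L24Rik and Fam84a, differed from it by 3.04, 3.30 and 3.37 log2 units a library.

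**Figure D4:**
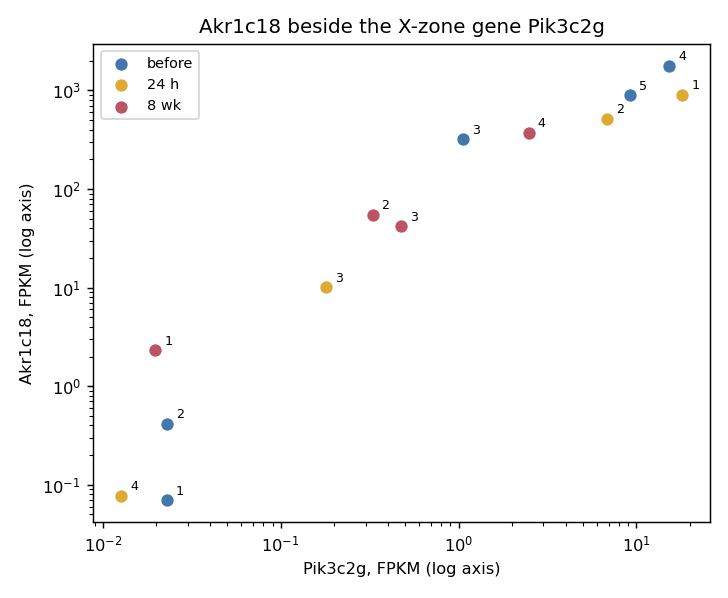
Akr1c18 against Pik3c2g in FPKM (log axes), with 1 point for each of the 13 libraries, coloured by time and numbered by replicate. The 5 libraries below 20 FPKM of Akr1c18 come from all 3 times and all lie at or below 0.180 FPKM of Pik3c2g.

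Lists of neighbouring enzymes were read by their counts and medians beside those of all genes, whose median log2 fold change was 0.03 in both comparisons with before. Of all 14078 genes, 20.5% were higher and 16.4% lower at 8 weeks, and 12.6% were higher and 6.63% lower at 24 h. No list count was tested against these shares. Of 10 tested relatives among the aldo-keto reductases, 1 was higher and 3 were lower at 8 weeks than before (median -0.11), and 0 and 1 at 24 h (median -0.33). Akr1cl fell to 87.9 ± 46.6 FPKM at 8 weeks (n = 4), against 1371 ± 333 FPKM before TAM (n = 5), with a log2 fold change of -3.84 (SE 0.73, edgeR adjusted p = 0.0014), while Akr1c12 rose by 2.99 (SE 0.68, adjusted p = 0.0043), and members of this family may share reads. Akr1c12 stood at 12.9 FPKM in 8-week replicate 3 and at 1.62 to 2.64 FPKM in the other 8-week libraries. Without the 4 libraries that stood apart its value was 2.22 (edgeR adjusted p = 0.00057). Of 11 17-beta-hydroxysteroid dehydrogenases and related enzymes, 5 were higher and 1 lower at 8 weeks (median 0.54), among them Hsd3b7 at 1.32 (SE 0.29) and Hsd17b11 at 1.02 (SE 0.19), and 1 higher and 3 lower at 24 h (median -0.30). Hsd3b7 was highest in 8-week replicate 3, at 93.8 FPKM. Without the 4 libraries that stood apart its 8-week value was 1.02 (edgeR adjusted p = 0.011). Of 14 retinol and retinal dehydrogenases, the wider family of Rdh1, 5 were higher and 1 lower at 8 weeks (median 0.76). Dhrs9, which also acts on 3-alpha-hydroxysteroids, rose to 2.47 ± 0.815 FPKM at 8 weeks, against 0.152 ± 0.126 FPKM before TAM (log2 fold change 4.15, SE 0.58, adjusted p = 0.00018), opposite in direction to Rdh1. Rdh9 of the same list, not called, had 3.12 to 6.78 FPKM before TAM and 0.251 to 1.77 FPKM at 24 h. At 8 weeks Rdh9 had 0.104, 0.289, 6.70 and 0.337 FPKM. Like Rdh1, it was highest in replicate 3 at both later times. At 24 h 3 of these 14 were higher, among them Aldh1a1 at 4.00 (adjusted p = 0.031), which rested on replicate 3 and was 0.16 (adjusted p = 0.85) without it.

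Of 12 tested genes of steroid conjugation and oxidation, 6 were higher and 0 lower at 8 weeks (median 1.01), beside 20.5% and 16.4% of all genes, among them Cyp7b1, which hydroxylates oxysterols and androgen precursors, at 1.83 (SE 0.30, adjusted p = 0.00055). By the same test 0 of the 12 were called at 24 h. Cyp27a1 (61.4 FPKM), Papss2 (40.3 FPKM) and Ugt1a6a (21.4 FPKM), all called at 8 weeks, were highest in 8-week replicate 3. Without the 4 libraries that stood apart, values at 8 weeks against before were 1.47 for Cyp27a1, 1.39 for Papss2 and 1.86 for Ugt1a6a. For Cyp7b1 the value was then 1.67. Of 9 genes of cofactor supply and related electron transfer or transport, 1 was higher and 2 lower at 8 weeks (median 0.02). Nnt, the mitochondrial transhydrogenase, fell to 20.5 ± 9.85 FPKM at 8 weeks, against 96.6 ± 11.4 FPKM before TAM (log2 fold change -2.11, SE 0.34, adjusted p = 0.00043). Of 5 steroid receptor genes, 2 were higher and 1 lower at 8 weeks (median -0.27). The glucocorticoid receptor Nr3c1 was higher by 1.42 (SE 0.20, edgeR adjusted p = 0.00018) and the progesterone receptor Pgr by 1.76 (SE 0.51, adjusted p = 0.016). Pgr averaged under 1 FPKM in both groups. Of 4 genes structurally or functionally next to Srd5a3, only Dhdds was called at 8 weeks, at -0.43 (adjusted p = 0.037), a call that ended without any 1 of 8 single libraries.

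**Figure D5:**
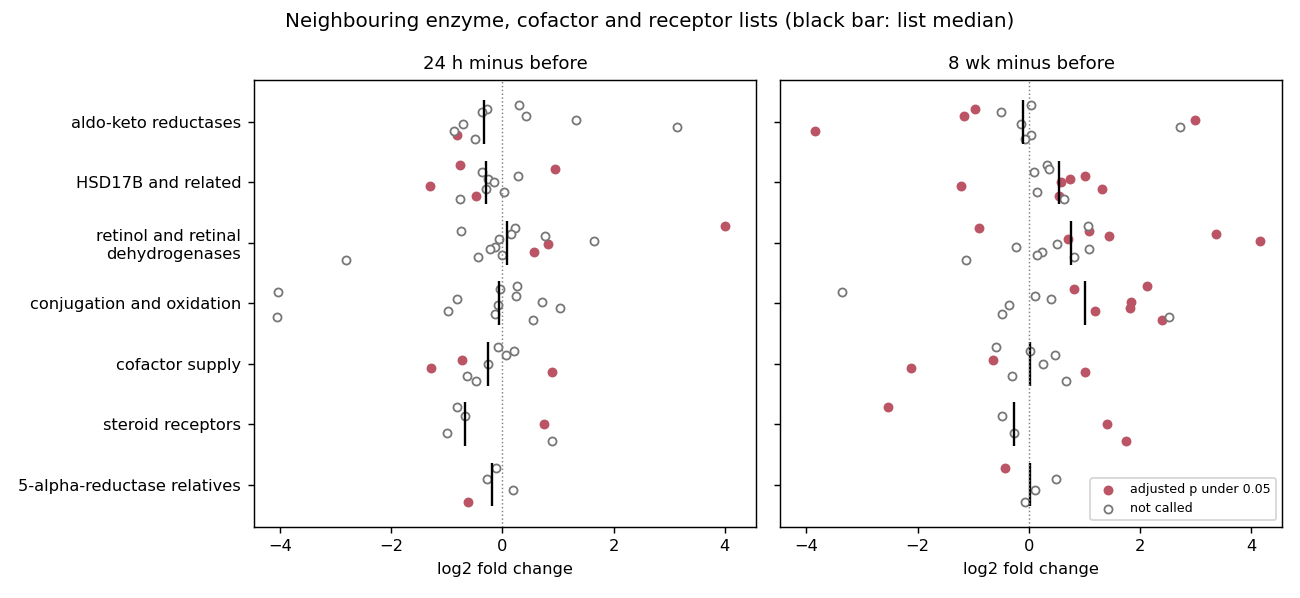
log2 fold changes of the tested genes in 7 lists of neighbouring enzymes, cofactor genes and receptors, for 24 h minus before and 8 weeks minus before. Filled points passed an adjusted p of 0.05 by edgeR and black bars are list medians. The medians of the conjugation and oxidation list (1.01) and the retinol and retinal list (0.76) are the highest at 8 weeks.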

How the data were processed

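Adrenal gland mRNA was measured in 13 libraries made with a stranded kit, per the labels' protocols, and the submitters' processing notes name bcl2fastq 2.17, TopHat2 2.0.14 and the build mm10 (GRCm38). For each transcript and library, tables by the authors give an expected count (estimated, not always whole) and FPKM, per the file headers. A further deposited table gives a log2 ratio, p-value and q-value of 8 weeks to before, per the file headers. The listed transcripts had at least 16 reads in at least 4 before or 3 later libraries, as read from the values. Listed reads were 17331673 to 27309429 per library. All sample columns were used.

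Expected counts were summed per gene over the 18738 transcripts listed for all libraries and rounded. edgeR 4.0.16 under R 4.3.3 (quasi-likelihood test, TMM, filterByExpr, 1 fit of 3 groups, no block) was run on the 14078 genes, and calls are at a Benjamini-Hochberg adjusted p under 0.05. Standard errors are the fold change over the root of F. Gene levels are the deposited FPKM, summed over transcripts, which are not scaled between libraries. DESeq2 1.42.0, limma 3.58.1 voom with sample quality weights, no scaling factor, no filter, the compared groups alone, a replicate block and leaving out libraries were the alternatives. The script was tested on simulated data. Members, lists and alternatives were chosen with earlier results of these data known. Named beside them are Star, up to 4 called genes per list and comparison in order of p, and the 3 genes of nearest profile (mean of at least 5 FPKM). The split of libraries at 20 FPKM of Akr1c18 and the genes that describe the libraries that stood apart were chosen after their values were seen. No protein sequences were used here, and 1 gene that this rule names is not reported here.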

Additional observations from a re-analysis of the deposited data

Results flagged for a closer look

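Of 27 sets of 4 or 5 libraries (8 genes and Star at 3 times), 6 held a library whose gap to its nearest neighbour took up more of the range than Dixon's 95% limit allows, where chance gives about 1 in 20. Akr1d1 at 8 weeks was high in replicate 3, at 14.1 FPKM with 0.207 to 1.90 FPKM in the others (gap 0.878 of the range). Rdh1 at 8 weeks was high in the same library, at 0.272 FPKM with 0.0180 to 0.0321 FPKM in the others (0.944), and that library held 13283 FPKM of Alb. In 24 h replicate 3, which held 1.07 FPKM of Cyp11b1 and 0.0374 FPKM of Xist, Srd5a1 was high at 25.9 FPKM (0.941) and Rdh1 at 0.536 FPKM (0.876). Akr1b7 was high in before replicate 3, at 6795 FPKM (0.833). Akr1c18 was high in 8-week replicate 4, at 374 FPKM with 2.32 to 54.7 FPKM in the others (0.859).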

How the results depend on the processing

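Over 22 alternatives, 353 of 394 values of the 6 tested genes kept their direction and side of the threshold, 30 became called, 0 lost a call, 11 uncalled values changed sign (5 of them Akr1c18 at 24 h against before), and 0 called values reversed. Rdh1 had no value at 8 weeks against 24 h in the fits of these groups alone. At 8 weeks against before 2 of the 6 tested genes were called, and 4 with every listed transcript and these groups alone, with voom weights or without 24 h replicates 3 and 4 (2 to 4 leaving out single libraries). Over all genes 5193 were called, 7895 with every listed transcript and 8101 with voom (4153 to 6706). At 24 h against before 1 of 6 was called, 3 with voom, 2 without 24 h replicates 3 and 4, and 3 without the 4 libraries that stood apart, an alternative chosen after seeing the data (1 to 4 leaving out single libraries, 4 without 24 h replicate 3). Over all genes 2708 were called, and 5378 with voom (1851 to 3998). At 8 weeks against 24 h 0 of 6 were called, 2 with DESeq2, 1 with no scaling factor, 1 with voom, 1 without 24 h replicates 3 and 4, and 2 without those 4 libraries (0 to 1 leaving out single libraries). Over all genes 2923 were called, and 973 with these groups alone, with shared or with every listed transcript (1782 to 4300). With the replicate block the calls were 1330 at 24 h against before and 1726 at 8 weeks against 24 h. Deviations of same-numbered libraries correlated between -0.13 and 0.28. Such correlations over all genes cannot show whether these libraries share a batch or an origin. Without a scaling factor the median of all genes shifted by -0.13 log2 at 8 weeks against before. Causes were not tested. Depth limits Rdh1 and Srd5a2, with at most 26 reads a library at 8 weeks. The SE of Hsd11b1 at 8 weeks against before was 0.80 with 24 h replicate 3 in the fit and 0.28 without it.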
